A study of Homo sapiens with 6 samples.

Results

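Hyaluronan turnover was described in AC16 cells through 9 genes chosen by name: the synthases HAS1, HAS2 and HAS3, the precursor enzyme UGDH, the hyaluronan-degrading proteins CEMIP, HYAL1, HYAL2 and HYAL3, and the receptor CD44. They are 9 of the 29638 gene rows, and each name matched 1 row. AC16 is an established human line made by fusing adult ventricular heart muscle cells with an SV40-transformed fibroblast line, and the labels call it wild type. The 6 messenger RNA libraries were 3 from cells given ethanol, the control, and 3 from cells given PA. PA is palmitelaidic acid in the treatment label and palmitic acid in the series title, so only the abbreviation is used. All 6 share the cell line and genotype. Neither the dose nor the length of exposure is stated in the labels, nor whether the replicates were grown apart, so a p-value here reflects the spread of the libraries alone, and that spread may be technical.

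Hyaluronan is a long unsulfated sugar chain of the extracellular matrix, made at the plasma membrane from UDP-glucuronic acid and UDP-N-acetylglucosamine and pushed out of the cell as it grows. It is cut outside the cell and at its surface, taken up, and broken down to single sugars in lysosomes. In the heart it surrounds fibroblasts and muscle cells, and its chain length is known to affect how cells sense the matrix through CD44.

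Values are RPKM, reads scaled by transcript length and library size, so levels of different genes can be set side by side. Transcripts over 4000 nt and up to 1000 nt deviated in opposite directions in PA 3. Ratios and shares of genes of unlike length can thus move with the library. Read depth is unknown, and RPKM summed to between 733025 and 881369 per library, highest in PA 3. Of 12 cardiomyocyte markers in the files only GATA4 and TNNI3 reached a mean of 1 RPKM over the 6 libraries, against 11 of 13 fibroblast markers. The labelled cell type was thus not matched by most of its defining genes. TNNI3 had means of 0.913 RPKM in control and 3.30 RPKM in PA, so it reached 1 RPKM through its PA values. MYH7, a sarcomere myosin, lay between 0 and 0.02 RPKM. Among the fibroblast markers COL3A1 and FAP fell in PA and none rose at a limma adjusted p of 0.05, where 1.97% of all genes tested were lower and 2.84% higher. At an unadjusted p of 0.05, 0 of these markers were higher and 4 lower, where 13.5% of all genes tested were higher and 12.4% lower. COL3A1 had means of 3.81 RPKM in control and 0.86 RPKM in PA, so it reached 1 RPKM through its control values. COL3A1 no longer passed without PA 2 (adjusted p = 0.0507), and FAP passed in 1 of 6 fits with a library left out and not without the filter on low values (adjusted p = 0.0723). COL1A1 had means of 299.2 and 138.7 RPKM in control and PA without overlap, and its log2 fold change of -1.18 did not pass (limma adjusted p = 0.051). Of the 11 tested fibroblast markers, 1 had a positive log2 fold change. The summed level of the fibroblast markers was 3242 to 3822 RPKM in control and 2981 to 3124 RPKM in PA. In PA, TNNI3 rose among 2 tested cardiomyocyte markers, EGFL7 and TIE1 among 2 endothelial, CD14 among 2 leukocyte and KRT8 among 3 epithelial markers. None of these 5 genes passed without the filter on low values (adjusted p of 0.0688 to 0.112) or with the replicate number as a block (0.0551 to 0.0756). With each library left out in turn, TNNI3 passed 2 times of 6, TIE1, CD14 and KRT8 each 1 time, and EGFL7 0 times. The summed levels in control and PA were 12.9 to 13.7 and 14.4 to 17.5 RPKM for cardiomyocyte, 27.6 to 40.6 and 56.1 to 60.3 RPKM for endothelial, 44.0 to 55.1 and 65.6 to 76.4 RPKM for leukocyte, and 273.0 to 343.5 and 325.4 to 351.1 RPKM for epithelial markers, while the defining genes CDH5, PTPRC and CDH1 stayed at or below 0.19 RPKM. Most of each sum came from 1 gene. The means in control and PA were 2332 and 2065 RPKM for VIM among the fibroblast markers. They were 10.9 and 11.3 RPKM for GATA4, 27.7 and 47.1 RPKM for EGFL7, 47.6 and 64.9 RPKM for CD68, and 263.6 and 275.6 RPKM for KRT18. The part of these markers in the results that follow was not tested.

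The difference that led to this set of genes was that of CEMIP between PA and control, so the values of the 9 genes in that contrast are a description and no test is given for them. CEMIP is a hyaluronan-binding protein of the secretory pathway that skin fibroblasts need to cut hyaluronan. Its bulk level cannot separate fewer CEMIP-expressing cells from less CEMIP RNA in each cell. The 250 bases before its RefSeq transcription start (GRCh38.p14, chr15:80779120-80779369, plus strand) are shown beside those of its transmembrane relative CEMIP2 (GRCh38.p14, chr9:71768514-71768763, minus strand), because these relatives had unlike values in PA. Capitals mark matches, on either strand, to 4 short motifs named in the next paragraph, and no match overlaps another.
CEMIP: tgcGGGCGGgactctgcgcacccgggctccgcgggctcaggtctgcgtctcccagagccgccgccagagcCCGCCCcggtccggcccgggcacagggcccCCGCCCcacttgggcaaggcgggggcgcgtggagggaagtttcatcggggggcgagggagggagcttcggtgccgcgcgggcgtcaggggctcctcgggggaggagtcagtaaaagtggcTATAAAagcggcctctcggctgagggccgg
CEMIP2: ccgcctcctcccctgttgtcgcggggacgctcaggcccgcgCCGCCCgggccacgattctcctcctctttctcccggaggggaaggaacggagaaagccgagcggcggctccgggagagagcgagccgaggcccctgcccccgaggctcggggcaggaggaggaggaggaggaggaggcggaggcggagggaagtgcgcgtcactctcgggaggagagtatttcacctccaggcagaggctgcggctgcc

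CEMIP held 1 match to the TATA box, spelled TATAAA, whose first base is at position -30 from the start, and CEMIP2 held none. Of the 35116 RefSeq windows of this length 10.7% hold that spelling. The GC box, spelled GGGCGG, was found 3 times in the CEMIP window and 1 time in the CEMIP2 window, and 42.6% of all windows hold it. The AP-1 site, searched as TGAGTCA, was in neither of these windows and stood in 4.2% of all. The last motif, CCAAT, was likewise in neither and stood in 32% of all. Among the members searched, HAS1, HAS3, HYAL1, HYAL3, CD44 and UGDH also had a GC box and HYAL2 had none. Of the members searched, the TATA spelling was in the CEMIP window alone. HYAL3 has 2 windows, and both held GC boxes. HAS2 is not described here. A match of letters is a description and says nothing of a factor's binding.

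CEMIP was at 18.48, 16.45 and 17.10 RPKM in control 1, 2 and 3 and at 7.61, 6.39 and 3.58 RPKM in PA 1, 2 and 3. Each PA library was below each control library, and PA 3 was the lowest. The means were 17.3 ± 1.04 RPKM in control and 5.86 ± 2.07 RPKM in PA (SD, n = 3 per group), and the PA mean was 0.338 times the control mean. On the log2(RPKM + 1) scale the difference was -1.47 ± 0.22 (limma SE). That scale understates the change of low genes. The coefficient of variation was 5.98% in control and 35.3% in PA, so the spread was wider among the PA libraries.

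CEMIP has a long transcript, with a median of 7297 nt over its basic GENCODE models, and long transcripts as a class were lower in PA 3. The 2823 protein-coding genes over 4000 nt had a median log2 fold change of -0.15, and their median deviation from the control mean was -0.0031 in PA 1, -0.13 in PA 2 and -0.29 in PA 3. The 1049 protein-coding genes up to 1000 nt had a median log2 fold change of 0.20. Their median deviation was 0.11 in PA 1, 0.13 in PA 2 and 0.38 in PA 3, and -0.12 to 0.12 over the controls. CEMIP deviated by -1.09, -1.31 and -2.00 in PA 1, 2 and 3. Since CEMIP was chosen for its difference, nothing is read from its distance to either class median. The part of transcript length in that difference was not tested. With correction for length and GC content (a trend fitted to each library) the CEMIP difference was -1.34, and without PA 3 it was -1.20. CEMIP exons overlap those of MESD, a chaperone gene on the opposite strand, by 2.94% of their length. MESD was at 23.8 ± 1.73 and 21.7 ± 1.31 RPKM in control and PA, and its log2 fold change of -0.13 did not pass (limma adjusted p = 0.469).

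**Figure D1:**
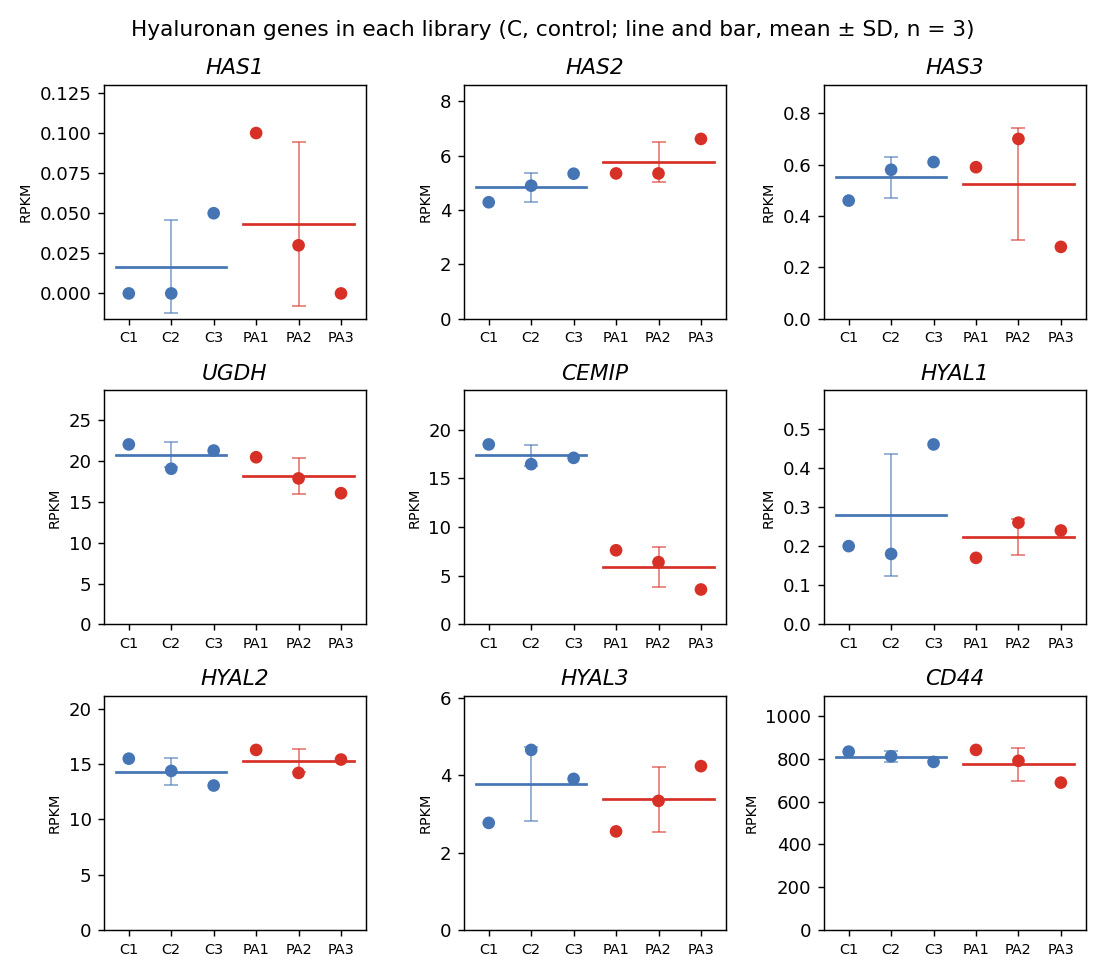
RPKM (vertical axes, each gene on its own linear scale) of the 9 genes in the 6 libraries, with controls in blue, PA in red, and lines and bars for mean and SD of 3 libraries. The 3 PA values of CEMIP lie at 3.58 to 7.61 RPKM, below its controls at 16.45 to 18.48 RPKM, while UGDH, HYAL2, HYAL3 and CD44 overlap between the groups.

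Of the 9 members, 6 reached a mean of 1 RPKM and entered the fit across all genes, and HAS1, HAS3 and HYAL1 did not. Over all 14159 genes of that fit 681 were past an adjusted p of 0.05, 402 of them higher and 279 lower in PA. The share of higher calls was 59.0%, and 39.0% with libraries rescaled to a common sum, which moved the median of all genes from -0.02 to -0.11. The groups did not overlap for 2 of the 6 members, CEMIP and HAS2, as for 32.6% of all genes tested, and since the set was chosen on this contrast nothing is read from that count. With 1 library left out, the CEMIP difference was -1.42, -1.50 and -1.48 when it was control 1, 2 or 3, and -1.66, -1.54 and -1.20 when it was PA 1, 2 or 3.

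The synthases differed widely in level. HAS2, the main synthase of many mesenchymal cells, was at 4.29, 4.90 and 5.34 RPKM in the controls and at 5.35, 5.35 and 6.62 RPKM in PA 1, 2 and 3. The highest control was 5.34 and the lowest PA value 5.35 RPKM, so the groups touch without overlapping. Its log2 difference was 0.21 ± 0.13, and 0.38 with length and GC correction, 0.12 with a common sum, 0.14 without control 1 and 0.12 without PA 3. HAS3, a synthase known from keratinocytes, was at 0.46 to 0.61 RPKM in control and 0.28 to 0.70 RPKM in PA. HAS1 was listed at 0 in control 1, control 2 and PA 3 and at 0.10 RPKM at most. HAS2 made up 89.6% ± 0.673 of the summed synthase RPKM in control and 90.8% ± 4.43 in PA, and the sum was 5.41 ± 0.628 and 6.34 ± 0.485 RPKM. HAS2 exons overlap HAS2-AS1, an antisense RNA known to support HAS2 expression in some cells, by 4.80%, and HAS2-AS1 was at 0.45 to 0.77 RPKM in both groups. HAS3 exons overlap CHTF8, a gene on the opposite strand, by 6.90%, and CHTF8 was at 40.2 ± 4.41 and 31.8 ± 3.97 RPKM, far above HAS3, with a log2 fold change of -0.33 that did not pass (limma adjusted p = 0.161). CHTF8 was past the threshold with length and GC correction (-0.48, adjusted p = 0.0196), a setting in which 2292 of 13481 genes passed. The labels do not say whether counting used strand, and without strand the reads of such a pair cannot be told apart.

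UGDH oxidises UDP-glucose to UDP-glucuronic acid, a building block of hyaluronan and of sulfated chains alike. It was at 22.03, 19.05 and 21.28 RPKM in the controls and at 20.46, 17.87 and 16.06 RPKM in PA, and the groups overlap. Its log2 difference was -0.19 ± 0.12, -0.08 with length and GC correction and -0.29 with a common sum. Its antisense partner UGDH-AS1, which covers 7.24% of its exon length, was at 5.14 ± 1.20 and 2.96 ± 0.575 RPKM in control and PA, and its log2 fold change of -0.63 ± 0.18 did not pass (limma adjusted p = 0.0853). With length and GC correction UGDH-AS1 was past the threshold (-0.53, adjusted p = 0.0419), as were 2292 of 13481 genes in that setting.

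The HYAL enzymes, relatives of the sperm hyaluronidase, had different levels and none was set apart between the groups. HYAL2, anchored at the cell surface, was at 15.48, 14.37 and 13.05 RPKM in the controls and 16.27, 14.19 and 15.40 RPKM in PA, with a log2 difference of 0.09 ± 0.11. HYAL3 was at 2.77, 4.66 and 3.91 RPKM in the controls and 2.55, 3.34 and 4.24 RPKM in PA, with a log2 difference of -0.13 ± 0.20. HYAL1, the lysosomal enzyme, was low, at 0.18 to 0.46 RPKM in control and 0.17 to 0.26 RPKM in PA. The sign of the small HYAL2 and HYAL3 values depended on the processing: HYAL2 was at -0.0093 with a common sum, and HYAL3 at 0.02 without PA 1. HYAL2 exons share 11.2% of their length with TUSC2, and HYAL3 exons 12.2% with NAA80 and 2.12% with IFRD2, all on the same strand, where strand cannot separate reads. TUSC2 was at 36.8 ± 6.74 and 45.4 ± 0.662 RPKM, NAA80 at 6.23 ± 1.18 and 8.03 ± 0.214 RPKM and IFRD2 at 50.6 ± 4.64 and 50.7 ± 1.73 RPKM in control and PA, and none of these passed limma (adjusted p of 0.219, 0.19 and 0.975).

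CD44 is the main hyaluronan receptor, a surface glycoprotein with many splice forms. It was by far the most abundant member, above 99.5% of all rows by control mean, at 834.95, 812.86 and 786.94 RPKM in the controls and 842.97, 791.84 and 689.85 RPKM in PA. The groups overlap, with PA 1 the highest and PA 3 the lowest of all 6. Its log2 difference was -0.07 ± 0.11, -0.23 with quantile normalization and 0.01 without PA 3. A gene-level RPKM does not separate its splice forms. The antisense RNA CD44-AS1, which covers 0.840% of CD44 exons, was at 0.49, 1.11 and 0.93 RPKM in the controls and 0.26, 0.17 and 0.16 RPKM in PA, below the filter and thus not tested.

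CEMIP stood lower in the order of levels in PA than in control. In control the order was CD44, UGDH, CEMIP, HYAL2, HAS2, HYAL3, HAS3, HYAL1 and HAS1. Of these neighbours HAS2 and HYAL3 overlapped over the 3 libraries, as did HAS3 and HYAL1, which met at 0.46 RPKM. In PA, HYAL2 stood above CEMIP and overlapped UGDH, and CEMIP overlapped HAS2. The ratio of CEMIP to HAS2 was 4.31, 3.36 and 3.20 in the controls and 1.42, 1.19 and 0.541 in PA, and that of CEMIP to HYAL2 was 1.22 ± 0.0851 and 0.384 ± 0.131. Median transcript length is 7297 nt for CEMIP, 4190 nt for HAS2 and 2227 nt for HYAL2. The part of length in these ratios was not tested.

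CEMIP2, described in mouse as a cell surface hyaluronidase and named here after its values were seen, gives a second reading of the family. It was at 38.16, 36.25 and 34.88 RPKM in the controls and 39.73, 32.04 and 30.69 RPKM in PA, with a log2 fold change of -0.10 that did not pass (limma adjusted p = 0.647). Of the summed RPKM of CEMIP, CEMIP2, HYAL1, HYAL2 and HYAL3, CEMIP made up 24.0% ± 1.01 in control and 9.82% ± 2.78 in PA. CEMIP2 made up 50.5% ± 0.290 and 57.9% ± 1.78, and HYAL2 19.8% ± 0.919 and 26.1% ± 2.08. The sum was 72.1 ± 2.85 RPKM in control and 58.9 ± 6.52 RPKM in PA. The part of transcript length in these shares was not tested. Shares of RNA are not shares of enzyme activity.

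**Figure D2:**
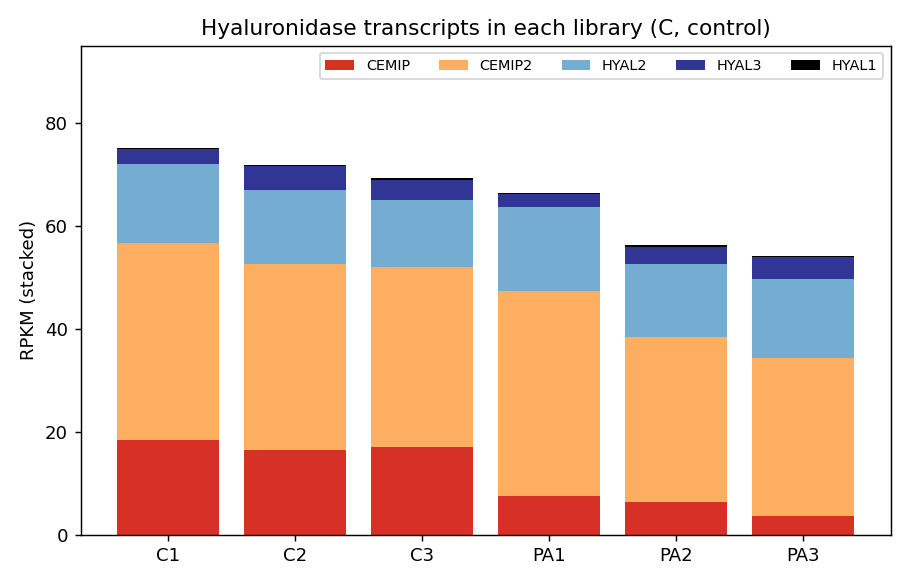
Stacked RPKM of 5 hyaluronidase transcripts (vertical axis, from 0) in each of the 6 libraries. The CEMIP segment makes up 24.0% of the bar on average in control and 9.82% in PA, while the CEMIP2 and HYAL2 segments stay the larger part of the bars in PA.

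Beyond the 9 members, 6 lists of related genes held 63 tested genes, and 1 passed limma, UAP1L1, which was lower in PA. None was higher, with 11 higher and 6 lower at an unadjusted p of 0.05, and the median log2 fold change was -0.02, as over all genes (-0.02). Over all genes 4.81% were past the threshold and 1.97% were past it and lower, and at the unadjusted p 13.5% were higher and 12.4% lower. UAP1L1, a relative of the pyrophosphorylase that makes UDP-N-acetylglucosamine, was at 14.76, 15.99 and 12.52 RPKM in the controls and 8.24, 8.23 and 7.03 RPKM in PA. Its groups do not overlap, and its log2 fold change was -0.80 ± 0.13 (limma adjusted p = 0.0252). With each library left out in turn it passed 1 time of 6, in the fit without PA 3 (-0.73), and not without the filter on low values.

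In the UDP-sugar list, the other 13 of 14 tested genes did not pass limma. Of the 14, 3 were higher and 1 lower at an unadjusted p of 0.05 (13.5% and 12.4% over all genes). Their log2 fold changes were positive for 8 of 14. The groups did not overlap for 5 of the 14 (35.7%), against 32.6% of all genes. Of these, UAP1L1 and GNPNAT1 were lower, and GFPT1, PGM1 and UXS1 were higher. GNPNAT1 was at 24.24, 25.63 and 28.73 RPKM in the controls and 20.40, 23.78 and 22.56 RPKM in PA (-0.23, limma adjusted p = 0.248). UAP1, the pyrophosphorylase itself, and GFPT1, which sets the pace of the hexosamine pathway, were singled out after their values were seen. So were GNPNAT1, PGM1 and UXS1. GFPT1 was at 21.02, 21.22 and 24.00 RPKM in the controls and 31.75, 30.65 and 27.71 RPKM in PA, without overlap, and its log2 fold change of 0.43 did not pass (limma adjusted p = 0.0624). UAP1 was at 70.32, 74.07 and 81.06 RPKM in the controls and 80.30, 85.17 and 105.77 RPKM in PA, and its log2 fold change was 0.26 (limma adjusted p = 0.252). PGM1 was at 25.6 ± 1.39 and 33.8 ± 1.38 RPKM in control and PA, and its log2 fold change of 0.39 did not pass (limma adjusted p = 0.0617). GFPT1, PGM1 and UAP1 were past the threshold as higher with length and GC correction, with log2 fold changes of 0.66, 0.41 and 0.31. UAP1L1 was past it as lower (-0.82). In that setting 1214 of 13481 genes were past it as higher.

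Of 4 other breakdown enzymes tested, none passed limma, with 2 higher and 0 lower at an unadjusted p of 0.05 (13.5% and 12.4% over all genes). HEXA, a lysosomal hexosaminidase subunit, was at 91.53, 97.11 and 90.83 RPKM in the controls and 121.79, 121.66 and 114.80 RPKM in PA, and the log2 fold change was 0.35 ± 0.09 (limma adjusted p = 0.0657). These groups do not overlap, and HEXA was past the threshold with length and GC correction (0.30, adjusted p = 0.0175), where 2292 of 13481 genes passed.

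Of 6 receptors other than CD44, none passed limma, with 2 higher and 2 lower at an unadjusted p of 0.05 (13.5% and 12.4% over all genes). HMMR, an intracellular and surface hyaluronan-binding protein also tied to the spindle, was at 39.4 ± 1.45 and 41.3 ± 2.72 RPKM (limma adjusted p = 0.707). C1QBP, a mostly mitochondrial protein that also binds hyaluronan, was at 241.7 ± 10.6 and 250.0 ± 44.7 RPKM (limma adjusted p = 0.893). STAB1 and STAB2, clearance receptors of endothelium, were at 0.47 RPKM at most.

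Of 15 hyaluronan-binding matrix genes, 12 were under the filter, among them ACAN, HAPLN1 and TNFAIP6, and the 3 tested did not pass limma, with 1 higher and 0 lower at an unadjusted p of 0.05 (13.5% and 12.4% over all genes). PTX3, a pentraxin that helps to link hyaluronan around the mouse egg, was at 52.7 ± 3.19 and 61.5 ± 6.95 RPKM in control and PA, with a log2 fold change of 0.21 (limma adjusted p = 0.278). VCAN, the large hyaluronan-binding proteoglycan versican, was at 9.15, 8.02 and 9.46 RPKM in the controls and 9.31, 7.06 and 5.13 RPKM in PA, with overlap and with PA 3 the lowest (limma adjusted p = 0.344).

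Of 14 tested CD44 partners, processing and splicing genes, none passed limma, with 1 higher and 0 lower at an unadjusted p of 0.05 (13.5% and 12.4% over all genes). SRGN, the proteoglycan serglycin and a CD44 ligand, was at 600.04, 673.53 and 611.71 RPKM in the controls and 879.12, 794.62 and 1085.80 RPKM in PA. Its groups do not overlap, and its log2 fold change was 0.54 ± 0.13 (limma adjusted p = 0.059). It was past the threshold with a filter at a mean of 5 RPKM (adjusted p = 0.0454), with quantile normalization (adjusted p = 0.0349) and with length and GC correction (adjusted p = 0.0106). In the last of these settings 2292 of 13481 genes passed. SRGN did not pass without the filter on low values (adjusted p = 0.154) or with the replicate number as a block (adjusted p = 0.097). With each library left out in turn it passed 0 times of 6. MSN, the cytoskeletal linker moesin, was at 196.8 ± 5.92 and 196.1 ± 29.4 RPKM (limma adjusted p = 0.953). ESRP1 and ESRP2, epithelial splicing factors that act on CD44, were at 0.50 RPKM at most.

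Of 22 tested genes that build sulfated chains, which also draw on UDP-glucuronic acid, none passed limma, with 2 higher and 3 lower at an unadjusted p of 0.05 (13.5% and 12.4% over all genes). Their median log2 fold change was -0.12, and 6 of 22 values were positive, where the median over all genes was -0.02 and 47.5% of their values were positive. Several of these genes have long transcripts, and protein-coding genes over 4000 nt had a median of -0.15. EXT1, a heparan sulfate polymerase subunit, was at 77.1 ± 1.33 and 64.5 ± 7.85 RPKM (limma adjusted p = 0.201). CHPF, a chondroitin polymerising factor, was at 32.9 ± 5.16 and 39.0 ± 2.48 RPKM (limma adjusted p = 0.284). With length and GC correction EXT1 moved from -0.26 to -0.06 and CHPF from 0.25 to 0.10. The part of length in the list median was not tested.

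**Figure D3:**
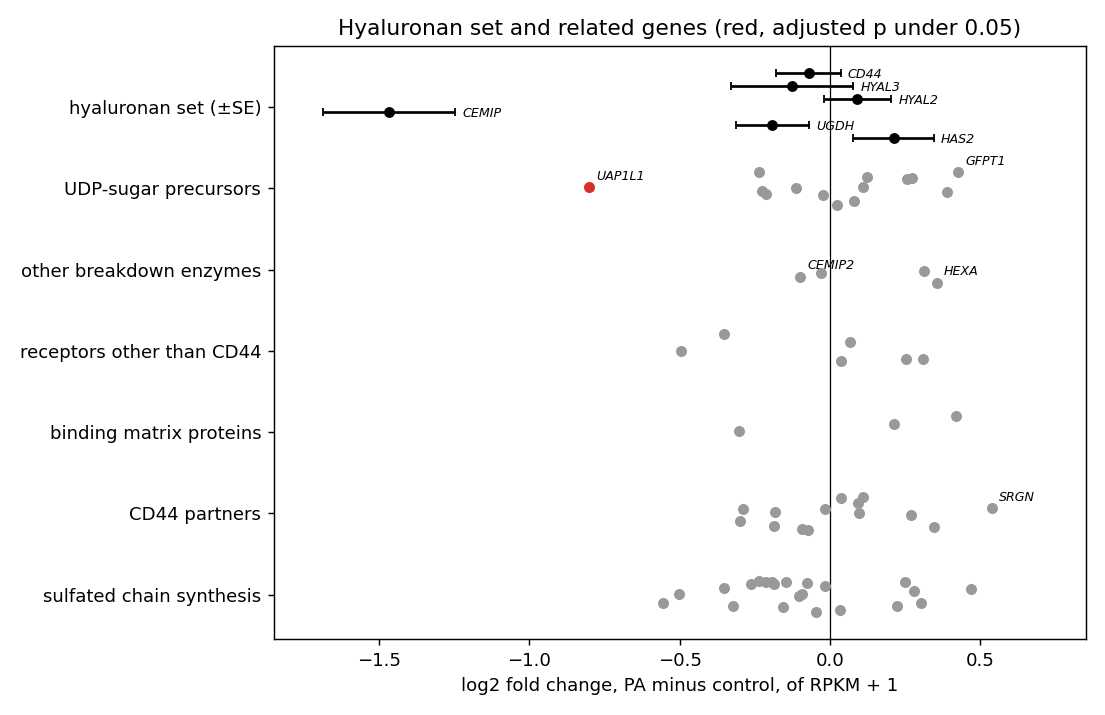
Difference in log2(RPKM + 1) between PA and control (horizontal axis) for the 6 tested members with SE and for 63 related genes by list, each dot 1 gene with a small random vertical offset. CEMIP stands at -1.47, the other members lie between -0.19 and 0.21, and UAP1L1 is the 1 related gene in red, past an adjusted p of 0.05.

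Genes whose pattern was most like that of CEMIP were found by Pearson correlation of log2(RPKM + 1) over the 6 libraries among 9322 protein-coding genes with a mean of at least 5 RPKM. They included LSG1, a GTPase of ribosome maturation (r = 0.999), TAF4, a subunit of the general transcription factor TFIID (0.997), NCOA5, a nuclear receptor coactivator (0.996), and THBS1, the matrix glycoprotein thrombospondin 1 (0.996). With 6 libraries in 2 groups and 9322 genes compared, such values are a description and carry no p. All of these genes share the libraries and their scaling. THBS1 was at 192.05, 178.58 and 180.69 RPKM in the controls and 103.45, 81.67 and 62.78 RPKM in PA. NCOA5 was at 23.69, 24.14 and 25.09 RPKM in the controls and 11.58, 10.71 and 6.53 RPKM in PA. Since they were chosen for this likeness, nothing is read from the order of their libraries. The 4 genes differed in size, with log2 differences of -1.29 for NCOA5, -1.17 for THBS1, -0.52 for LSG1 and -0.21 for TAF4.

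**Figure D4:**
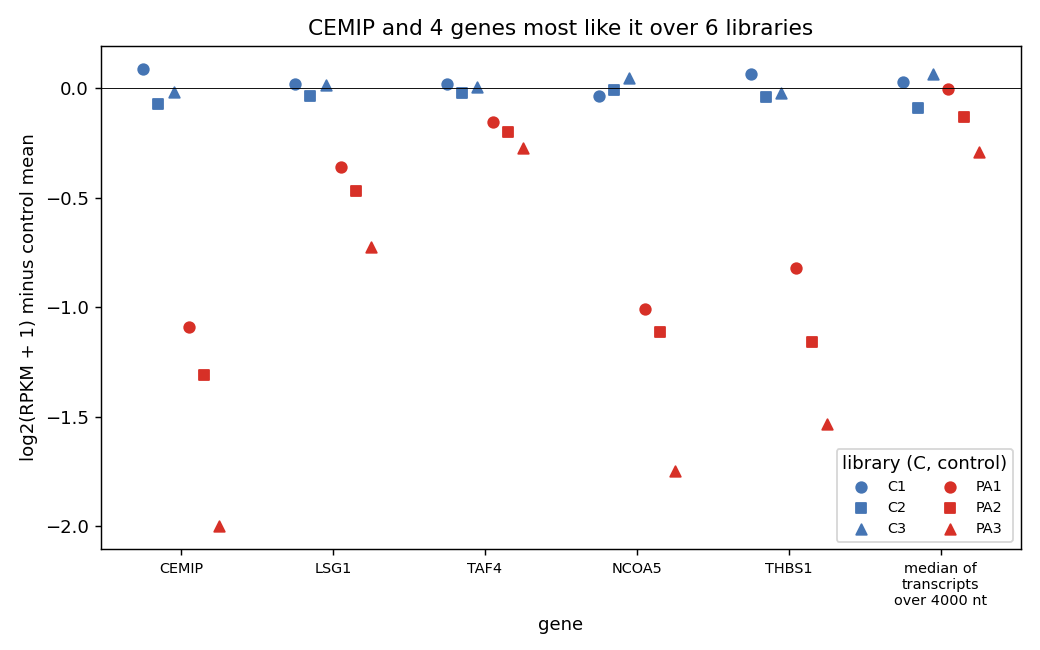
Deviation of log2(RPKM + 1) from the control mean (vertical axis) for CEMIP, 4 genes most like it and the median of protein-coding transcripts over 4000 nt, with 1 point per library. CEMIP lies at -1.09 to -2.00 in the PA libraries, and the long-transcript median at -0.0031 to -0.29.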

How the data were processed

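The deposited tables hold RPKM with 2 decimals for each of 6 libraries. The authors used FastQC, fastp, HISAT2, StringTie and RSEM with hg19, per the submitters' processing notes, which give no roles or versions; gene models, use of strand and handling of multi-mapped reads are not stated there. RPKM is no count, so two-sided limma tests (limma 3.58.1 under R 4.3.3, eBayes with a mean-variance trend) were run on log2(RPKM + 1) for the 14159 genes whose mean was at least 1 RPKM, without covariates, with Benjamini-Hochberg adjustment over all of them and a threshold of 0.05. With 3 libraries a group the smallest exact permutation p is 0.1, so that test was left out. The fit was tested on simulated data, with no outcome reported here, so nothing about these libraries is read from that test. Errors are SDs (n = 3) or limma SEs.

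GENCODE 29 gave gene types, exon overlaps, lengths and GC content (medians over basic transcripts, 95.2% of tested genes). It and the RefSeq promoter windows (GRCh38.p14) are on another build than hg19, so no coordinates of the expression tables are given. Length and GC trends were removed per library with splines of 4 degrees of freedom each.

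The members and lists were chosen with earlier results of these data known. Named genes are the 9 members, up to 4 passing genes per list by absolute log2 fold change or the 2 most abundant tested where none passed, the 5 genes most like CEMIP, and genes that overlap a member; 2 genes named by this rule are not reported here. Alternatives covered pseudocount, filter, scaling, variance model, replicate block, length and GC, and each library left out.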

Additional observations from a re-analysis of the deposited data

How the results depend on the processing

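The number of genes past the threshold was 681, against 72 without the filter on low values, 98 with the replicate number as a block, 2292 with length and GC correction, and 10 to 364 when a library was left out. The replicate block left the fold changes as they were. Deviations of same-numbered libraries from their group means had correlations of 0.157, -0.01 and 0.04 over the genes tested. With 3 libraries a group such values cannot decide whether the replicate numbers pair the samples. Of the related genes, 0 were higher and 1 lower in the report. With a filter at a mean of 5 RPKM there were 1 and 2, where 439 and 302 of all 10001 genes tested were higher and lower. With quantile normalization there were 1 and 2, where 507 and 348 of all 14159 were. With length and GC correction there were 9 and 4, where 1214 and 1078 of all 13481 were. Without the filter 0 were lower, and 0 to 1 were higher and 0 to 1 lower when a library was left out. The CEMIP difference lay between -1.66 and -1.20 in all settings run. CD44 moved to -0.23 with quantile normalization and HAS2 to 0.38 with length and GC correction, and the cause was not tested. Of genes that did not pass, the sign turned with a common sum for C1QBP (-0.0716), HMMR (-0.0387) and IFRD2 (-0.0983), with quantile normalization for C1QBP (-0.0927) and IFRD2 (-0.0373), and with length and GC correction for C1QBP (-0.0551), MSN (0.0673) and IFRD2 (-0.0642). With each library left out, C1QBP ranged from -0.105 to 0.128, MSN from -0.112 to 0.105 and IFRD2 from -0.0697 to 0.0517. Read depth is unknown, so no counting error can be given for HAS1, HAS3 and HYAL1, whose values lie near 0.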
